A study of Mus musculus with 12 samples.

Results

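The NRF2 antioxidant and metallothionein genes are a set of 10 genes chosen by symbol: *Nfe2l2*, *Hmox1*, *Nqo1*, *Gclc*, *Gclm*, *Slc7a11*, *Txnrd1*, *Srxn1*, *Mt1* and *Mt2*. The choice was made with earlier results of these data known, so shares set beside those of all genes only describe the set. They are 10 of the 55536 genes in the count table, and all 10 passed the filter on low counts, with 14499 genes tested in all. Cells of C2C12, an established mouse myoblast line that fuses into myotubes when serum is withdrawn, here carrying GFP, were differentiated on plates that were uncoated (Control) or coated with Collagen I, fibronectin or Geltrex, and their RNA was sequenced in bulk. Geltrex is a basement membrane extract, mostly laminin, collagen IV and entactin. Each of the 4 groups has 3 samples of the same line under the same differentiation protocol, the sources used here do not give the day of RNA harvest, and 1 cell line limits what the groups can model. The labels do not state that samples came from separate cultures, so the p-values measure only the spread between these samples, which may be technical.

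NRF2, the protein made from *Nfe2l2*, is held at low levels by KEAP1, which presents it for degradation. Oxidants and electrophiles disable KEAP1, and NRF2 then binds antioxidant response elements together with small MAF proteins and switches on genes for glutathione synthesis, thioredoxin recycling, quinone reduction and heme breakdown. Metallothioneins are small cysteine-rich proteins that bind zinc and copper, and their genes respond to metal through the factor MTF1 at metal response elements. NRF2 is regulated largely through protein stability, so its mRNA is not a measure of its activity.

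The promoter windows show which members carry the letters of these elements near a start site. RefSeq windows on GRCm38.p6, from 250 bases before a start site to 50 bases after it, were matched for 8 of the 10 members in 10 windows, with no window for *Hmox1* and *Gclc*. The antioxidant response element core was searched as TGACNNNGC on both strands and is held by 12.4% of 32851 promoters. It lay in 5 of the 10 member windows, those of *Nfe2l2*, *Gclm*, *Srxn1* and *Mt2* and only 1 of the *Txnrd1* windows. The metal response element core was searched as TGCACNC or TGCGCNC on both strands, and at least 3 matches are held by 1.97% of promoters. *Mt1* held 3 matches, *Mt2* held 4, and *Gclm* held 3, of which 1 overlaps its antioxidant response element core. A match says only that these letters are present. A window without a match says nothing of sequence outside it, which was not searched.

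The upstream 250 bases of *Gclm* and of a *Txnrd1* start site are printed because both genes were higher on fibronectin than on every other surface. Capitals mark the antioxidant response element core, and both stretches are on the plus strand, at chr3:122245307-122245556 and chr10:82858956-82859205. The core begins 134 bases before the start site of *Gclm* and 92 bases before that of *Txnrd1*.
Gclm: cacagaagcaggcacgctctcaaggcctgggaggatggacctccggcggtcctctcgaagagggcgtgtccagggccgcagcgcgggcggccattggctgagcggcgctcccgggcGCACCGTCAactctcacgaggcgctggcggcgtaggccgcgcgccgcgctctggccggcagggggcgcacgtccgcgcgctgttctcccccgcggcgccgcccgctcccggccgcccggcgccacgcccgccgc
Txnrd1: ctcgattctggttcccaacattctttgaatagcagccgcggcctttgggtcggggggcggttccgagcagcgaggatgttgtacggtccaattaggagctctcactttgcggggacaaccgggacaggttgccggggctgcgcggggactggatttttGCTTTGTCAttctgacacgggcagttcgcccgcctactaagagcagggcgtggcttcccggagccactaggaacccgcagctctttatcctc

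The upstream 250 bases of both metallothionein genes follow, plus strand, at chr8:94178839-94179088 for *Mt1* and chr8:94172368-94172617 for *Mt2*, with metal response element cores in capitals. The other *Mt1* matches lie past the start site, at chr8:94179091-94179115, and 1 match of *Mt2* past its start site is not printed.
Mt1: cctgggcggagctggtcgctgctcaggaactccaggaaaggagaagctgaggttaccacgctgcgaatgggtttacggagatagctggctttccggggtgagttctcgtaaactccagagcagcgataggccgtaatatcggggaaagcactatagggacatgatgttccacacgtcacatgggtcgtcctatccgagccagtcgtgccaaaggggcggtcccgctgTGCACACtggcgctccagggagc
Mt1, past the start: TGCACTCcgcccgaaaagTGCGCTC
Mt2: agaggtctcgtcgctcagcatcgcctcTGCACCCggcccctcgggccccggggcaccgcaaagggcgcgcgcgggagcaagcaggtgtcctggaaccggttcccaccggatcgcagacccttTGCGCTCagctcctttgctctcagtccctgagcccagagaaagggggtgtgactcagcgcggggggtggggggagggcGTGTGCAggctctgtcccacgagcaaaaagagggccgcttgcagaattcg

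Shorter stretches show the antioxidant response element core, in capitals, for the remaining members that hold it. The stretch of *Nfe2l2*, the gene for NRF2 itself, lies on the minus strand at chr2:75704885-75704913. That of *Srxn1* lies on the plus strand at chr2:152105542-152105570, past the start site, and that of *Mt2* on the plus strand at chr8:94172529-94172557.
Nfe2l2: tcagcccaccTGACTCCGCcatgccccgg
Srxn1: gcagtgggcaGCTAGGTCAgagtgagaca
Mt2: aaagggggtgTGACTCAGCgcggggggtg

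Values are given as CPM, a gene's read count scaled to a common library size with TMM. Where genes are compared with each other, CPM is divided by kilobases of exon. Total counts lay between 22520404 and 27351766 per sample. Samples of a group differed by more than sampling noise in every pair, least on Geltrex, with chi-square values per degree of freedom of 2.18 to 4.54. Which calls of member genes with Geltrex are left when its 3 samples are summed to 1 is given below. Collagen I replicate 3 stood apart from replicates 1 and 2, with values of 44.7 and 65.1 against 7.73 between those 2. For the member genes, calls that change without it are given beside the result. For other named genes, such as *Gpx4* and *Taldo1*, the call without it was not tested. Summed over 7 markers of differentiated muscle, CPM lay between 6650 and 7548 in Control, 7230 and 7415 on Collagen I, 2161 and 2541 on fibronectin, and 3012 and 3279 on Geltrex, and all 7 were detected in every group and were lower on fibronectin and on Geltrex than in Control. Of the markers of undifferentiated myoblasts, *Pax7* reached at most 0.756 CPM and *Myf5* 38.5 CPM. Summed over 6 markers of dividing cells, it lay between 285 and 328, 213 and 224, 636 and 821, and 662 and 717 in the same order. Of the 6, 5 were higher on fibronectin and on Geltrex than in Control, and all 6 were lower on Collagen I than on either. Markers of macrophages, endothelium, epithelium and adipocytes summed to at most 3.49 CPM for any 1 of these lists in any sample, with *Adgre1* at 0 throughout. The part of these shifts in the results below was not tested, and in bulk RNA fewer cells of a type and less RNA per cell cannot be told apart.

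On fibronectin, 7 of the 10 genes were higher than in Control and none was lower. The 7 were *Hmox1*, *Nqo1*, *Gclc*, *Gclm*, *Slc7a11*, *Txnrd1* and *Srxn1*, each by less than 2-fold. By edgeR, a gene was called at a Benjamini-Hochberg adjusted p of at most 0.05, with the adjustment taken over the whole set of genes tested. By that rule 31.9% of all genes were called in this comparison, 17.1% as higher, and 2.42% were higher by at least 2-fold. The same 7 genes had no overlap between the groups, against 41.6% of all genes. *Nfe2l2*, *Mt1* and *Mt2* were not called. The median log2 fold change of the 10 was 0.44, beside -0.02 over all genes.

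**Figure D1:**
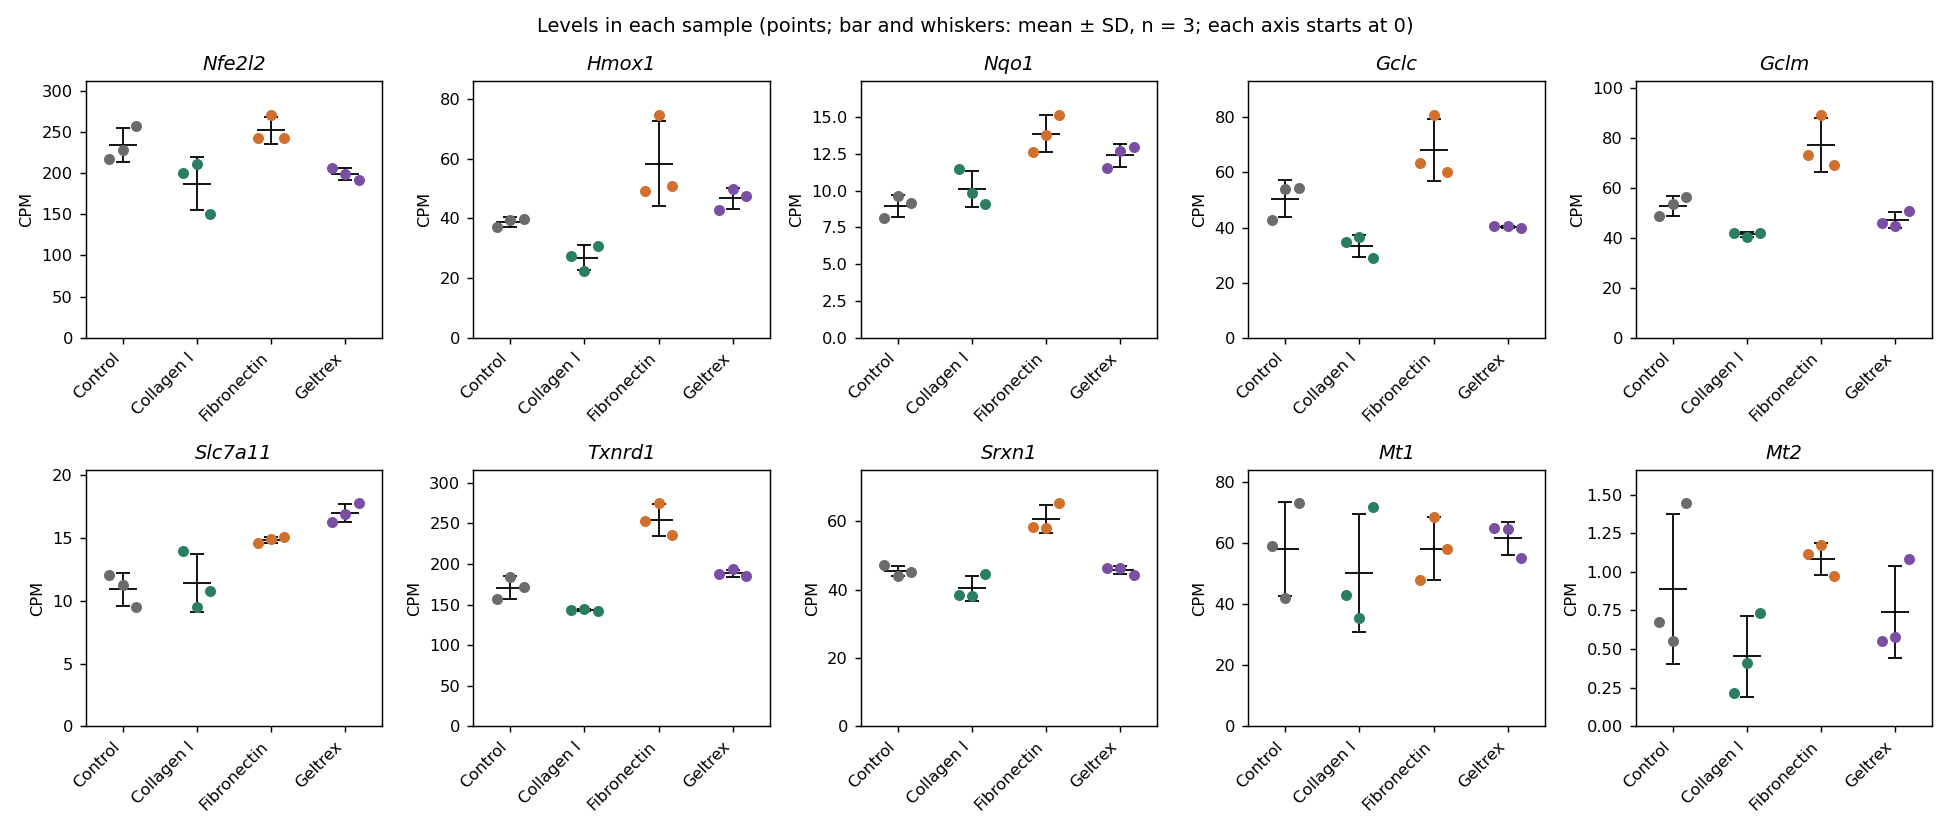
Level of each of the 10 genes in every sample, in CPM on axes that start at 0, by plate coating; points are samples, and bars with whiskers are the mean and SD of 3 samples. Fibronectin samples lie above all Control samples for Hmox1, Nqo1, Gclc, Gclm, Slc7a11, Txnrd1 and Srxn1, while the groups overlap for Mt1.

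*Nfe2l2* lies on chromosome 2 at 75675513-75704641 of GRCm38. Its CPM was 218, 228 and 257 in Control, 200.5, 211 and 150.5 on Collagen I, 243, 271 and 243 on fibronectin, and 206, 198 and 192 on Geltrex. Fibronectin and Control samples overlapped, and Collagen I replicate 3 was the lowest of all 12 samples. The log2 difference of fibronectin from Control was 0.11 ± 0.11 (SE, 95% interval -0.12 to 0.34). *Nfe2l2* was higher on fibronectin than on Collagen I by 1.35-fold (edgeR, Benjamini-Hochberg adjusted p = 0.0050), the log2 difference of Collagen I from fibronectin moving from -0.43 to -0.30 without Collagen I replicate 3. Its log2 difference from Geltrex was 0.34 ± 0.11 (edgeR, Benjamini-Hochberg adjusted p = 0.0377), and that call was lost without fibronectin replicate 1 or 2 or without any of the 3 Geltrex samples, with adjusted p up to 0.138. Geltrex and Control did not overlap, with a log2 difference of -0.24 ± 0.11 (adjusted p = 0.110, edgeR), and this became a call without Collagen I replicate 3 (adjusted p = 0.0258). Without that replicate the difference of Collagen I from Geltrex turned from -0.09 to 0.05, neither value being called.

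*Hmox1*, on chromosome 8 at 75093621-75100589, encodes the inducible heme oxygenase. Its CPM was 37.0, 39.5 and 40.0 in Control, 27.3, 22.4 and 30.7 on Collagen I, 49.4, 74.9 and 50.8 on fibronectin, and 42.9, 49.7 and 47.6 on Geltrex. No Collagen I sample reached the lowest sample of any other group, and fibronectin replicate 2 was far above the rest. Fibronectin was 1.50-fold above Control (edgeR, Benjamini-Hochberg adjusted p = 0.0052). Leaving out single samples moved that log2 difference of 0.59 ± 0.14 between 0.37 and 0.69. Collagen I was 2.18-fold below fibronectin, a log2 difference of -1.12 ± 0.14 (edgeR, Benjamini-Hochberg adjusted p = 1.96e-05). It was 1.75-fold below Geltrex (edgeR, Benjamini-Hochberg adjusted p = 0.000462). Its difference from Control, -0.54 ± 0.14, missed the threshold (adjusted p = 0.0828, edgeR) and passed it without fibronectin replicate 2 (0.0187). With all samples kept, that difference was called under DESeq2 (adjusted p = 0.0228) and by edgeR with no filter on low counts (0.000134).

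*Nqo1*, on chromosome 8 at 107388225-107403206, encodes a quinone reductase and is a standard readout of NRF2. Its CPM was 8.11, 9.61 and 9.17 in Control, 11.5, 9.85 and 9.10 on Collagen I, 12.7, 13.8 and 15.2 on fibronectin, and 11.5, 12.7 and 13.0 on Geltrex. Both fibronectin and Geltrex lay above every Control sample, and Collagen I overlapped Control. The log2 difference from Control was 0.63 ± 0.12 on fibronectin (edgeR, Benjamini-Hochberg adjusted p = 0.00094) and 0.47 ± 0.12 on Geltrex (adjusted p = 0.0070). Fibronectin and Geltrex overlapped, with a difference between them of 0.16 (95% interval -0.09 to 0.41). The log2 difference of Collagen I from fibronectin was -0.45 ± 0.12 (edgeR, Benjamini-Hochberg adjusted p = 0.0061). Against Geltrex, the log2 difference of Collagen I was -0.29 ± 0.12 (adjusted p = 0.0672, edgeR), called only without Collagen I replicate 1 among the samples left out (-0.39, adjusted p = 0.0341).

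Glutathione synthesis starts with the glutamate-cysteine ligase, whose catalytic subunit is encoded by *Gclc* (chromosome 9 at 77754535-77794485) and whose modifier subunit is encoded by *Gclm* (chromosome 3 at 122245557-122270732). *Gclc* CPM was 42.8, 54.1 and 54.5 in Control, 34.7, 36.4 and 28.8 on Collagen I, 63.5, 81.0 and 60.2 on fibronectin, and 40.4, 40.4 and 39.7 on Geltrex. Every fibronectin sample was above every other sample, and the 4 groups did not overlap. *Gclc* was the only member called in Collagen I against Control, where 1.12% of all genes were called, with 0.917% lower. The log2 difference there was -0.60 ± 0.12 (edgeR, Benjamini-Hochberg adjusted p = 0.0265), and it lost its call without Control replicate 2 or 3, any Collagen I sample or any Geltrex sample, with adjusted p up to 0.126. Fibronectin was 1.35-fold above Control (edgeR, Benjamini-Hochberg adjusted p = 0.0120), a call lost without Control replicate 1 (0.0668) or fibronectin replicate 2 (0.0728). Collagen I was 2.05-fold below fibronectin (edgeR, Benjamini-Hochberg adjusted p = 8.96e-06). Fibronectin was 1.70-fold above Geltrex (edgeR, Benjamini-Hochberg adjusted p = 0.000355).

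*Gclm* CPM was 48.6, 53.6 and 56.3 in Control, 41.9, 40.3 and 42.0 on Collagen I, 73.1, 89.5 and 69.3 on fibronectin, and 45.8, 44.8 and 50.6 on Geltrex. Fibronectin stood above all other samples, and Collagen I lay below all Control and Geltrex samples. Fibronectin was 1.46-fold above Control (edgeR, Benjamini-Hochberg adjusted p = 0.00049), 1.87-fold above Collagen I (adjusted p = 3.39e-06) and 1.64-fold above Geltrex (adjusted p = 8.16e-05). Collagen I differed from Control by -0.35 ± 0.10 on the log2 scale (adjusted p = 0.0911, edgeR), and this was called without fibronectin replicate 2 (0.0374). With all samples kept, that difference was called under DESeq2 (adjusted p = 0.0416) and by edgeR with no filter on low counts (0.0387). Exons of *Gclm* overlap those of *Gm17494* over 4.71% of their bases, and that gene had 94 counts in all 12 samples together. Per kilobase of exon, the level of *Gclc* was 1.14 to 1.69 times that of *Gclm* in every sample.

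*Slc7a11*, on chromosome 3 at 49892526-50443614, encodes the cystine carrier xCT, which brings in the cysteine for glutathione. Its CPM was 12.1, 11.3 and 9.47 in Control, 14.0, 9.51 and 10.8 on Collagen I, 14.6, 14.9 and 15.1 on fibronectin, and 16.3, 16.9 and 17.8 on Geltrex. Geltrex was highest here, with no overlap with any other group. Geltrex was 1.55-fold above Control (edgeR, Benjamini-Hochberg adjusted p = 0.0014) and 1.49-fold above Collagen I (adjusted p = 0.0029). Fibronectin was 1.36-fold above Control (edgeR, Benjamini-Hochberg adjusted p = 0.0173), a call lost without Control replicate 3 (0.0715). The log2 difference of Collagen I from fibronectin was -0.38 ± 0.13 (edgeR, Benjamini-Hochberg adjusted p = 0.0258), a call lost without Collagen I replicate 2 (0.119) or 3 (0.0729) or any fibronectin sample (0.0504 to 0.0560). The difference of fibronectin from Geltrex was -0.19 (95% interval -0.46 to 0.08).

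*Txnrd1*, on chromosome 10 at 82833951-82897712, encodes the cytosolic thioredoxin reductase. Its CPM was 156, 184 and 172 in Control, 144, 145 and 142 on Collagen I, 253, 275 and 235 on fibronectin, and 187, 194 and 185 on Geltrex. The groups formed 4 separate ranges, with Collagen I lowest and fibronectin highest. Fibronectin was 1.49-fold above Control (edgeR, Benjamini-Hochberg adjusted p = 5.86e-05), 1.77-fold above Collagen I (adjusted p = 1.13e-06) and 1.35-fold above Geltrex (adjusted p = 0.0012). The log2 difference of Collagen I from Geltrex was -0.40 ± 0.08 (edgeR, Benjamini-Hochberg adjusted p = 0.0012). Neither its difference from Control, -0.25 ± 0.08 (adjusted p = 0.136, edgeR), nor that of Geltrex from Control, 0.14 ± 0.08 (adjusted p = 0.193), was called.

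*Srxn1*, on chromosome 2 at 152105516-152111376, encodes sulfiredoxin, which restores over-oxidized peroxiredoxins. Its CPM was 47.2, 44.1 and 45.2 in Control, 38.3, 38.3 and 44.7 on Collagen I, 58.3, 58.2 and 65.3 on fibronectin, and 46.5, 46.3 and 44.4 on Geltrex. Fibronectin alone was separate from the other groups, which overlapped one another. Fibronectin was 1.33-fold above Control (edgeR, Benjamini-Hochberg adjusted p = 0.0013), 1.50-fold above Collagen I (adjusted p = 4.81e-05) and 1.33-fold above Geltrex (adjusted p = 0.0024). Collagen I was -0.18 ± 0.08 from Geltrex on the log2 scale (adjusted p = 0.105, edgeR), and -0.26 (0.0208) without Collagen I replicate 3.

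**Figure D2:**
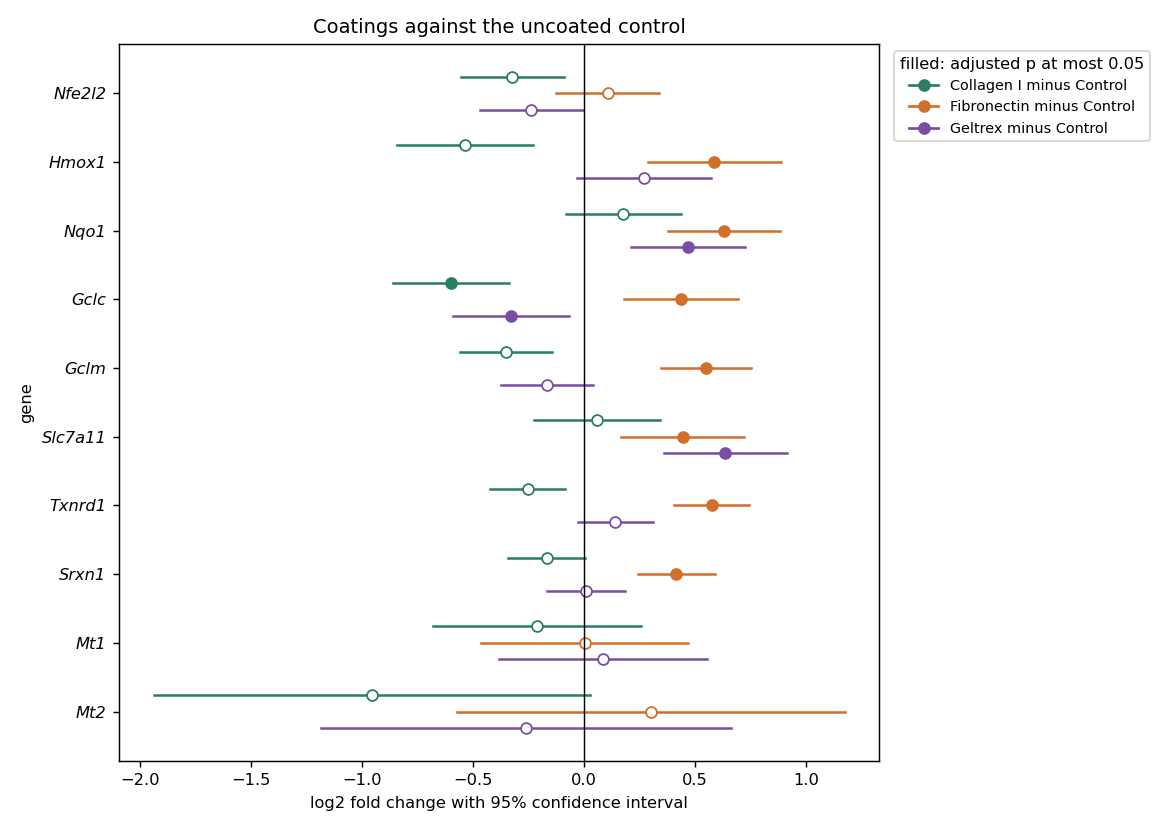
Log2 fold changes of the 10 genes on Collagen I, fibronectin and Geltrex against Control; lines are 95% confidence intervals, and filled points have an adjusted p of at most 0.05. On fibronectin 7 genes are filled, all to the right of 0.

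*Mt1*, one of the metallothionein genes, on chromosome 8 at 94179082-94180327, had CPM of 59.0, 42.1 and 73.0 in Control, 42.9, 35.6 and 71.9 on Collagen I, 47.9, 68.3 and 58.0 on fibronectin, and 64.8, 64.5 and 55.1 on Geltrex. The groups overlapped in all 6 comparisons, and Collagen I alone spanned nearly the whole range of the 12 samples. No comparison was called, with the log2 difference of fibronectin from Control at 0.0020 (95% interval -0.47 to 0.47) and that of Collagen I from Geltrex at -0.30 (95% interval -0.77 to 0.17). Without Collagen I replicate 3, *Mt1* was lower on Collagen I than on fibronectin (-0.57, edgeR, Benjamini-Hochberg adjusted p = 0.0271) and than on Geltrex (-0.65, adjusted p = 0.0159).

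*Mt2*, on chromosome 8 at 94172664-94173568, was barely measured. Its counts were 17, 15 and 34 in Control, 5, 11 and 17 on Collagen I, 30, 28 and 25 on fibronectin, and 13, 14 and 24 on Geltrex. In CPM, every fibronectin sample was above every Collagen I sample, and the other pairs of groups overlapped. The lowest fibronectin sample was at 0.971 CPM and the highest Geltrex sample at 1.08. Collagen I was 2.39-fold below fibronectin (edgeR, Benjamini-Hochberg adjusted p = 0.0332), with a wide 95% interval of the log2 difference from -2.21 to -0.30. That call was lost without Collagen I replicate 1 (adjusted p = 0.125) or 2 (0.0832) or fibronectin replicate 1 (0.0728) or 2 (0.0797). Without Collagen I replicate 3 the log2 difference was -1.76 in place of -1.25. Exons of *Gm45774*, on the opposite strand, cover 73.47% of the 588 exon bases of *Mt2*. Since the strand setting of the counting is not given, reads from these bases may have been counted for either gene or left out. The counts of *Mt2* may therefore fall short of its level. *Gm45774* had 1 to 7 counts per sample in Control, 1 to 2 on Collagen I, 1 on fibronectin and 13 to 18 on Geltrex. As counted, *Mt1* was 20.3 to 93.3 times the level of *Mt2* per kilobase of exon. That ratio would be too high if reads of *Mt2* were left out. The annotated exons of *Mt1* form 1 block of 1246 bases, its whole span. The ratio would be too low if most *Mt1* transcripts are shorter than that. *Mt3* and *Mt4* had 0 counts in every sample.

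**Figure D3:**
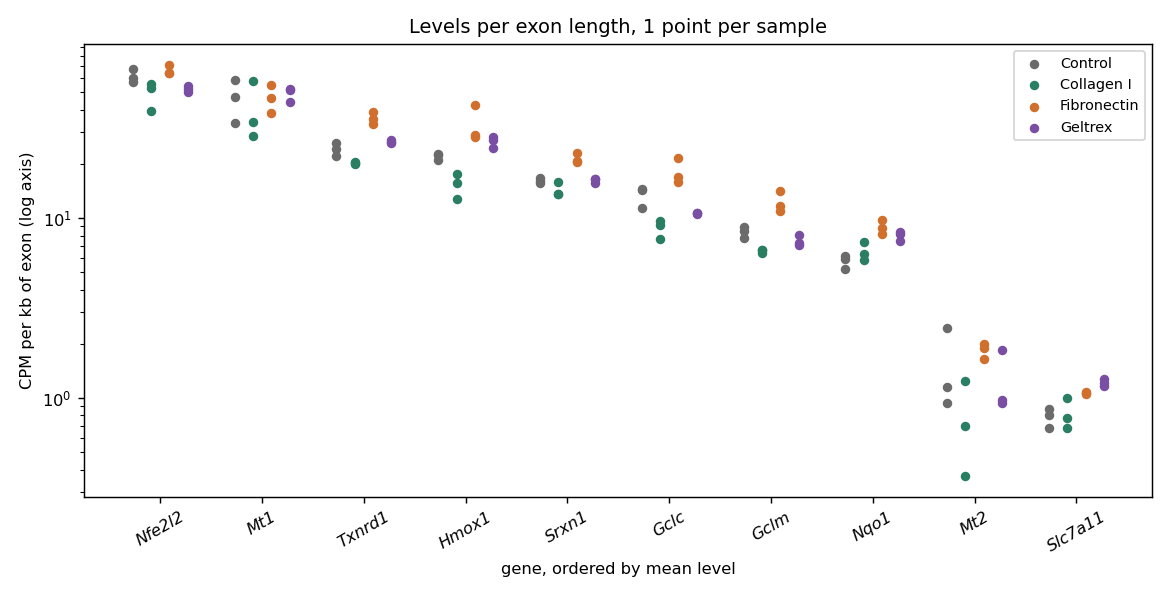
Levels of the 10 genes in CPM per kilobase of exon on a log axis, 1 point per sample, with coatings side by side and genes ordered by mean. Nfe2l2 and Mt1 lie highest, with Control means of 61.7 and 46.6 CPM per kilobase, and Mt2 and Slc7a11 lie lowest, at 1.51 and 0.785.

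Across the 4 surfaces, the mean CPM was highest on fibronectin for 8 members and on Geltrex for *Mt1* and *Slc7a11*. It was lowest on Collagen I for 8 members and in Control for *Nqo1* and *Slc7a11*. Not all neighbors in these orders differed beyond their spread. Fibronectin differed from the group next to it for *Gclc* and *Gclm*, where that was Control, for *Txnrd1* and *Srxn1*, where it was Geltrex, and for *Slc7a11*, where the next group down was Collagen I. Control also differed from Geltrex, the next below it, for *Gclc* (edgeR, Benjamini-Hochberg adjusted p = 0.0492). That call was lost without Control replicate 2 or 3, Collagen I replicate 1, fibronectin replicate 1 or any Geltrex sample, with adjusted p up to 0.157, and with all samples kept it was lost under DESeq2 (adjusted p = 0.0514) and under RLE normalization (0.0597). No other neighbors were called different, and for *Nfe2l2*, *Hmox1*, *Nqo1*, *Mt1* and *Mt2* no step of the order was called.

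Between Collagen I and fibronectin, 9 of 10 members, all but *Mt1*, were lower on Collagen I, against 45% of all genes called and 22.9% called as lower. With single samples left out, 7 to 9 members were called. The groups did not overlap for the same 9, against 51.4% of all genes. Calls with a drop of 2-fold or more on Collagen I were *Hmox1*, *Gclc* and *Mt2*, against 3.6% of all genes. That count of 3 was 2 without fibronectin replicate 1 or any Collagen I sample and 0 without fibronectin replicate 2. The median log2 fold change of the 10 was -0.71, beside 0.02 over all genes. Collagen I was also lower than Geltrex for 3 members, *Hmox1*, *Slc7a11* and *Txnrd1*, where 37.1% of all genes were called and 19% as lower, and without Collagen I replicate 3 the count was 5. Of the 10, 6 did not overlap there, against 54.7% of all genes.

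Geltrex differed from Control for 3 members, which is near the share of 33% over all genes. *Nqo1* and *Slc7a11* were higher, against 16.4% of all genes, and *Gclc* was lower, against 16.6%, with a log2 difference of -0.33 ± 0.12. Of the 10, 6 did not overlap between Geltrex and Control, against 50.4% of all genes. Against Geltrex, fibronectin was higher for 5 members, *Nfe2l2*, *Gclc*, *Gclm*, *Txnrd1* and *Srxn1*, where 19.3% of all genes were called and 10.3% as higher, and 6 did not overlap against 42.7%. Between Collagen I and Control 5 members did not overlap, all lower on Collagen I, against 17.3% of all genes, and the median log2 fold change was -0.29 beside -0.0031. With the 3 Geltrex samples summed to 1, which is then assumed to vary like the other groups, the calls left in the comparisons with Geltrex were *Slc7a11* against Control, *Hmox1* in Collagen I against Geltrex, and *Gclc* and *Gclm* in fibronectin against Geltrex. The 3 comparisons with Control share its samples, so they are not independent of one another, and the same holds for each coating across its comparisons.

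**Figure D4:**
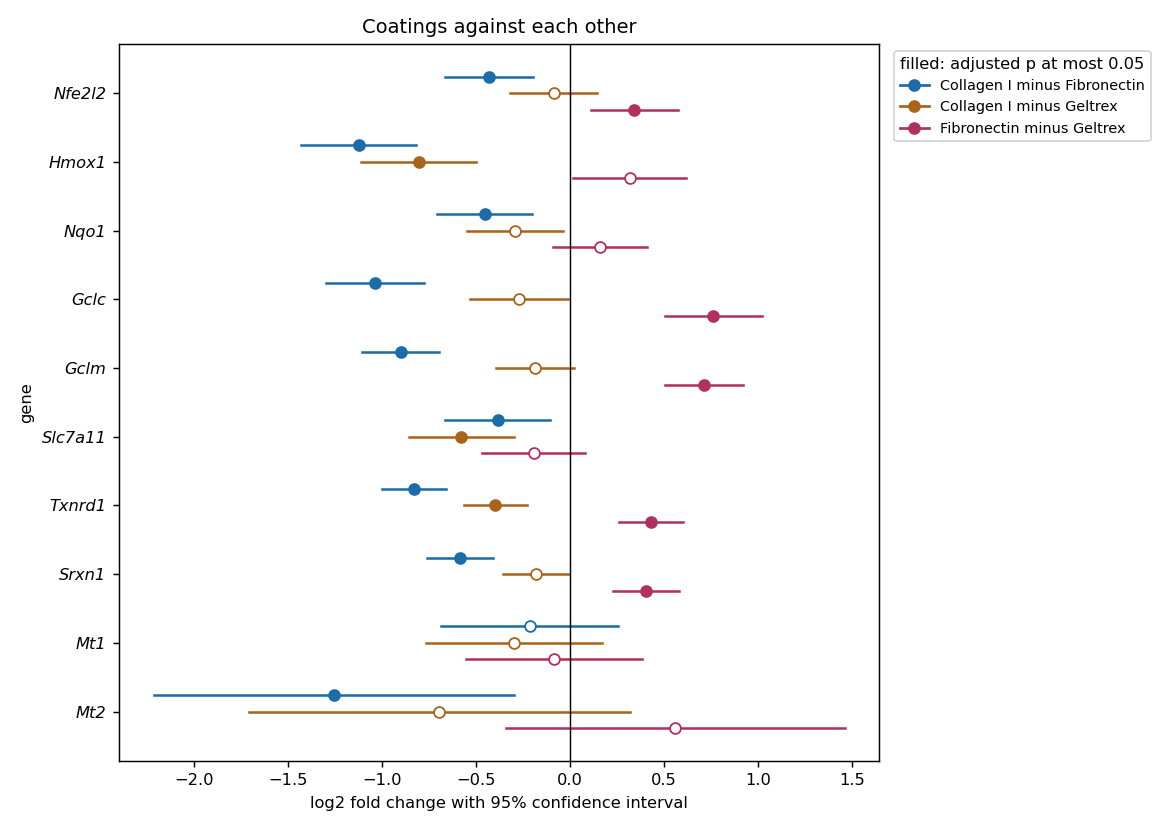
Log2 fold changes of the 10 genes between coatings, with 95% confidence intervals; filled points have an adjusted p of at most 0.05. Collagen I minus fibronectin lies left of 0 for all 10 genes and is filled for 9, and fibronectin minus Geltrex is filled for 5, all to the right of 0.

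Other genes of the same pathways were counted from a list of 51, of which 49 passed the filter and the remaining *Mt3* and *Mt4* had no counts. On fibronectin against Control, 12 were higher and 8 lower, and on Geltrex 14 were higher and 7 lower. Without Control replicate 1, 13 were called on fibronectin instead of 20. On Collagen I against Control none was called by edgeR, 4 had an unadjusted p under 0.05, and DESeq2 called 1. The shares called, 40.8% on fibronectin and 42.9% on Geltrex, stand beside 31.9% and 33% of all genes. Collagen I against fibronectin gave 11 higher and 12 lower, Collagen I against Geltrex 9 and 12, and fibronectin against Geltrex 3 and 5. These are 46.9%, 42.9% and 16.3% of the 49, near the 45%, 37.1% and 19.3% of all genes called. The 8 calls of that last comparison became 5 without fibronectin replicate 2 or any Geltrex sample. The median log2 fold change of the 49 lay between -0.07 and 0.09 in the 6 comparisons.

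By role, the genes called higher and lower on fibronectin against Control, where 17.1% of all genes were higher and 31.9% called, numbered 0 and 2 of 10 regulators, 3 and 2 of 11 glutathione genes, and 1 and 0 of 3 thioredoxin and peroxiredoxin genes. They numbered 4 and 0 of 6 enzymes of the pentose phosphate pathway and of NADPH production, 1 and 1 of 5 for quinone and aldehyde detoxification, 1 and 1 of 6 for heme and iron, 0 and 1 of 4 for superoxide and peroxide, and 2 and 1 of 4 tested for metal handling. *Tkt*, transketolase of the non-oxidative branch of the pentose phosphate pathway, was higher, at 0.55 ± 0.11 on the log2 scale (edgeR, Benjamini-Hochberg adjusted p = 0.0012). *Gsta4*, a glutathione transferase for lipid aldehydes, was higher on fibronectin (0.54 ± 0.12) and on Geltrex (0.61 ± 0.12), and *Gpx4*, the lipid peroxide reductase, was lower on fibronectin (-0.38 ± 0.11), where it also lay below Collagen I (0.57 ± 0.11 for Collagen I minus fibronectin). *Gsr*, glutathione reductase, was higher on fibronectin than on Geltrex by 0.41 ± 0.08. *Sod3*, the extracellular superoxide dismutase, was lower on fibronectin (-0.71 ± 0.16) and on Geltrex (-1.02 ± 0.16) than in Control and was 0.66 ± 0.16 higher on Collagen I than on Geltrex.

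Among regulators, *Keap1* was called in no comparison, with log2 differences between -0.20 and 0.20. *Bach1*, a repressor that competes with NRF2 at antioxidant response elements, had CPM between 63.0 and 75.0 in Control, 57.1 and 69.9 on Collagen I, 70.1 and 80.7 on fibronectin, and 111 and 119 on Geltrex. Collagen I was below both fibronectin (-0.28 ± 0.09) and Geltrex (-0.85 ± 0.09), and Geltrex was 0.77 ± 0.09 above Control on the log2 scale (edgeR, Benjamini-Hochberg adjusted p = 1.29e-05). *Maff*, a small MAF partner, was also higher on Geltrex, 0.76 ± 0.13 (adjusted p = 0.000243, edgeR), and Collagen I lay below Geltrex by a log2 difference of -0.88 ± 0.13. On fibronectin, *Bach1* differed from Control by 0.20 ± 0.09 and was not called (adjusted p = 0.120, edgeR), and *Mafk* was lower (-0.41 ± 0.08). Fibronectin was below Geltrex for *Maff* (-0.67 ± 0.13), *Bach1* (-0.57 ± 0.09) and *Mafk* (-0.44 ± 0.08), and above it for *Tkt* (0.32 ± 0.11). *Nfe2l1*, a relative of *Nfe2l2*, was lower on Geltrex than in Control (-0.43 ± 0.09). Collagen I exceeded both fibronectin (0.35 ± 0.09) and Geltrex (0.50 ± 0.09) for it.

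*Slc40a1*, which encodes the iron exporter ferroportin, moved in opposite directions on fibronectin and on Geltrex. Its CPM was between 11.0 and 15.1 in Control, 10.9 and 15.1 on Collagen I, 17.0 and 25.5 on fibronectin, and 3.79 and 5.55 on Geltrex. It was higher than Control on fibronectin by 0.67 ± 0.17 (edgeR, Benjamini-Hochberg adjusted p = 0.0073) and lower on Geltrex (-1.62 ± 0.19, adjusted p = 9.81e-06). Fibronectin differed from Geltrex by 2.29 ± 0.19 on the log2 scale (edgeR, Benjamini-Hochberg adjusted p = 4.90e-07). Collagen I was below fibronectin (-0.71 ± 0.17) and above Geltrex (1.58 ± 0.19).

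Among metal-handling genes, *Mtf1* was lower than in Control on fibronectin (-0.30 ± 0.08) and on Geltrex (-0.34 ± 0.08), and higher on Collagen I than on either, by 0.34 ± 0.08 and 0.38 ± 0.08. *Slc30a1*, the zinc exporter, was lower on Collagen I than on fibronectin (-0.94 ± 0.12) and than on Geltrex (-0.95 ± 0.12). *Mt1*, which responds to the same factor, was not called in these comparisons with all samples and the filter on low counts kept. Without Collagen I replicate 3 it was called lower on Collagen I than on fibronectin (-0.57) and than on Geltrex (-0.65). *Ugdh*, which makes the sugar donor for glucuronidation, was lower on Collagen I than on fibronectin (-0.60 ± 0.08). *Taldo1*, a pentose phosphate enzyme, was higher there by 0.41 ± 0.10.

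**Figure D5:**
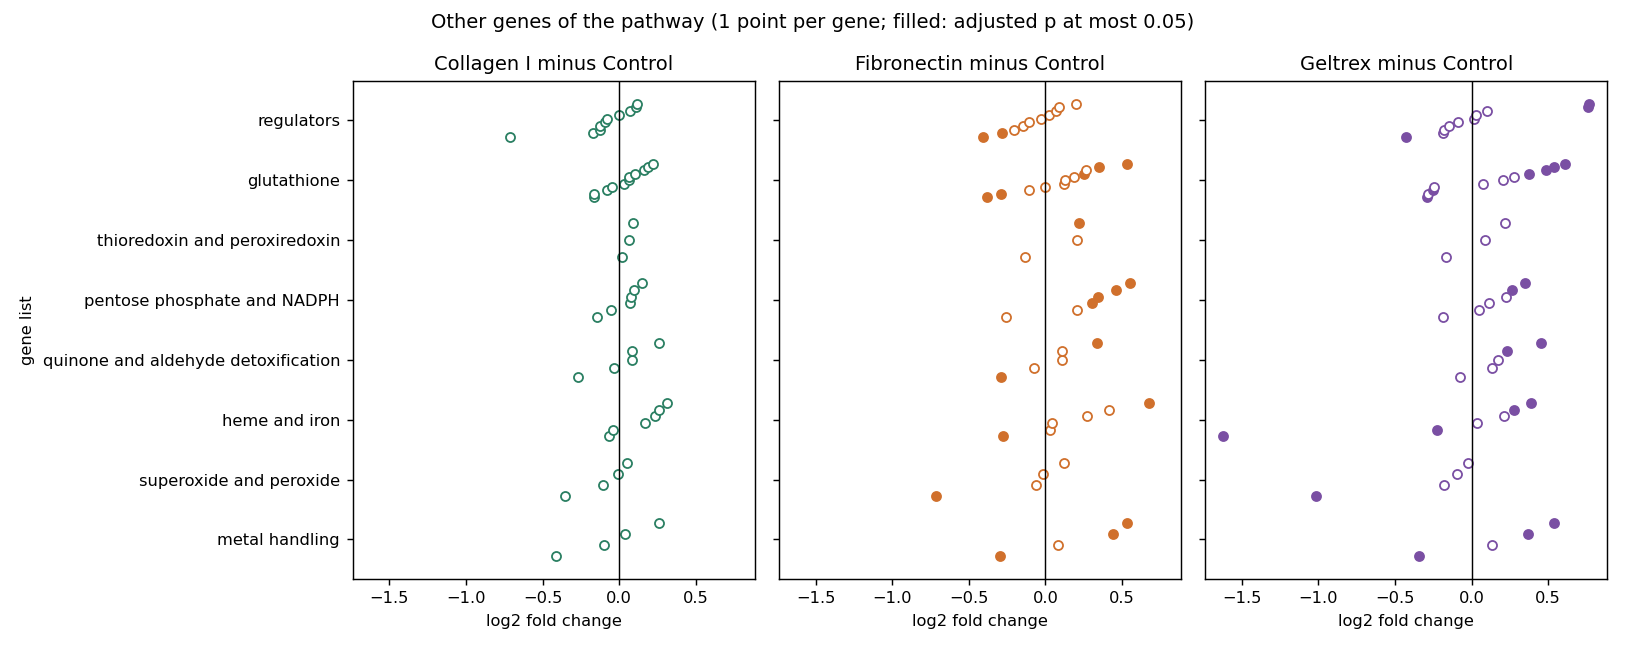
Log2 fold changes of the 49 other pathway genes on each coating against Control, grouped by role, 1 point per gene; filled points have an adjusted p of at most 0.05. No point is filled on Collagen I, and on fibronectin 4 of 6 genes of the pentose phosphate pathway and NADPH production are filled to the right of 0.

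The genes whose pattern over the 12 samples was most like that of a member were found by the root mean square difference of centered log2 CPM, among 12319 genes (12320 for *Mt2*). For *Nfe2l2*, whose own spread was 0.218, they were *Mindy3* at 0.0423, *Zfp207* at 0.0544 and *Zfp715* at 0.0635. For *Hmox1*, with a spread of 0.442, they were *Id2* at 0.106, *Col8a1* at 0.138 and *Hmgb3* at 0.151. For *Mt1*, with a spread of 0.322, the nearest were *Slc41a3*, *Mgp* and *Pfn1*, all at 0.191 to 0.194, less close than for *Nfe2l2* and *Hmox1*. For *Mt2*, with a spread of 0.640, they were *Gm49376*, *Fuom* and *Bcl6b*, at 0.353 to 0.411.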

How the data were processed

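RNA of 12 samples, 4 groups of 3, was sequenced on an Illumina NovaSeq with paired ends. The deposited table holds raw read counts per gene from the authors, who used FastQC, Trimmomatic, HISAT2 and featureCounts per the labels and methods. DESeq2 is also named there. Tool versions, genome build, annotation, and strand setting are not given in the sources used here. All 55536 gene identifiers are in GENCODE M21 (GRCm38), which gave names, positions and exon lengths. Genes that overlap may share or lose reads.

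Low-count genes were removed with filterByExpr of edgeR 4.0.16 under R 4.3.3 (minimum count 10, minimum total 15). The rest were scaled by TMM and fitted in 1 quasi-likelihood model of the 4 groups with 8 residual degrees of freedom. The 6 comparisons were adjusted by Benjamini-Hochberg over all 14499 genes tested. The standard error is the log2 fold change divided by the root of F. CPM and CPM per kilobase were computed here. The study names DESeq2, so DESeq2 1.42.0 was an alternative. The methods were tested on simulated data.

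The 10 members and the list of 51 other genes were chosen with earlier results of these data known. From the list, *Keap1*, *Bach1* and *Mtf1* are named, and in each comparison the called genes with the 3 highest and the 3 lowest values. Likeness is named for *Nfe2l2*, *Hmox1*, *Mt1* and *Mt2*, with 3 genes each. Groups come from the labels. Depth was 22520404 to 27351766 counts per sample, and genes with few counts, such as *Mt2*, have wide intervals.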

Additional observations from a re-analysis of the deposited data

How the results depend on the processing

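For the 10 genes in 6 comparisons, 19 alternatives other than a fold threshold gave 1134 values, of which 1058 kept their direction and side of the threshold, 44 lost a call, 19 gained one and 13 changed sign, none of the 13 called (lowest adjusted p 0.562). Sign changes with all samples kept were *Srxn1* on Geltrex against Control (-0.011) and *Mt1* on fibronectin against Control (-0.025) when every sample had to hold 10 counts or more, and *Mt1* in the latter (-0.0096) with only the 2 groups fitted. Leaving out single samples gave ranges that cross 0 for *Nfe2l2* in Collagen I against Geltrex (-0.18 to 0.046), *Slc7a11* in Collagen I against Control (-0.11 to 0.18), *Srxn1* (-0.015 to 0.035), *Mt1* (-0.10 to 0.28) and *Mt2* (-0.63 to 0.26) in Geltrex against Control, and *Mt1* in fibronectin against Control (-0.18 to 0.20) and fibronectin against Geltrex (-0.22 to 0.039). The cause was not tested.

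In the order Collagen I, fibronectin and Geltrex against Control, Collagen I against fibronectin, Collagen I against Geltrex, and fibronectin against Geltrex, the calls numbered 162, 4618, 4786, 6523, 5384 and 2805 genes. With a fold of at least 2 also required they numbered 19, 965, 1325, 1226, 1352 and 577 genes, 0, 0, 0, 3, 0 and 0 members, and 0, 0, 2, 0, 1 and 1 other pathway genes. Collagen I against Control gave 485 genes, 3 members and 1 pathway gene with DESeq2, 581, 4 and 2 with no filter on low counts, 40 genes and 0 members with only the 2 groups, and 45 genes and 0 members with the 3 Geltrex samples summed. Summing Geltrex, whose samples were the closest pairs, gave 2102 genes, 1 member and 7 pathway genes against Control, 2167, 1 and 6 for Collagen I against Geltrex, and 722, 2 and 2 for fibronectin against Geltrex. Geltrex against Control gave 5 members with only the 2 groups, and Collagen I against Geltrex gave 5 with no filter.

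Leaving out single samples gave 49 to 244 genes and 0 to 3 members for Collagen I against Control, 13 to 23 pathway genes for fibronectin against Control, 3 to 5 members for Collagen I against Geltrex, and 1738 to 3471 genes and 5 to 11 pathway genes for fibronectin against Geltrex. In no comparison did all 3 pairs of same-numbered samples correlate at r over 0.1 in their deviations (r from -0.154 to 0.225, and 0.0473, 0.169 and 0.225 for Collagen I and fibronectin), so the numbers were not taken to pair them. With the replicate block, the member calls stayed at 1, 7, 3, 9, 3 and 5, and the gene calls were 163, 4627, 4763, 6570, 5399 and 2799. RLE and DESeq2 scaling moved the median of all genes by at most 0.0115 (log2).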
